A study of Mus musculus with 20 samples.

Results

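The genes described here encode 10 families of enzymes that metabolise foreign compounds: cytochromes P450 of families Cyp2, Cyp3 and Cyp4, flavin-containing monooxygenases (Fmo), alcohol dehydrogenases (Adh), retinal dehydrogenases (Aldh1a), the alpha, mu and pi glutathione S-transferases (Gsta, Gstm, Gstp) and cytosolic sulfotransferases (Sult). They were chosen by gene symbol and by a level of at least 10 in at least 4 of 20 libraries. Of the 30691 named genes in the table, 76 carried such a symbol and 51 reached the level: 12 Cyp2, 1 Cyp3, 8 Cyp4, 6 Fmo, 3 Adh, 4 Aldh1a, 3 Gsta, 6 Gstm, 3 Gstp and 5 Sult genes. The choice used levels over all libraries and no contrast between groups, but a gene could pass through the groups where it was high. Of the 51 genes, 45 were at 10 or more in all 20 libraries. The other 6 were Gsta2 and Gstp2 (19 libraries), Cyp2b19 (15), Fmo6 and Sult6b1 (10) and Cyp2c23 (5). Just inside the threshold, the fourth highest value was 11.1 for Cyp2c23 and 13.3 for Sult6b1, and just outside it was 8.63 for Cyp2g1 and 7.87 for Gstm3.

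RNA was sequenced from whole mouse lung in 4 groups that crossed genotype with oxygen. C57BL/6 wild-type mice (WT) had 6 libraries after 4 weeks in room air (21% oxygen, normoxia) and 5 after 4 weeks in 10% oxygen (hypoxia). Mice without the gene for vasoactive intestinal peptide, a neuropeptide that relaxes vascular and airway muscle (VIPKO), had 4 libraries after 4 weeks of normoxia and 5 after 4 weeks of hypoxia. The genotype tag reads knockdown for VIPKO while the titles and the design text say knockout. The allele, age and sex of the mice are not stated. Nothing says that each library came from its own animal, so the p-values reflect only how far these libraries vary, and that variation may be technical.

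Values are the submitters' normalized signal, and differences are log2(signal + 1) differences ± SE from 1 limma fit over 21658 genes, called where the Benjamini-Hochberg adjusted p was below 0.05. Counts at an unadjusted p below 0.05 are given without the share over all genes. They describe the listed genes only and do not show an excess. Depth estimated from the smallest step of the values ran from 4.96 M reads (WT hypoxia 4) to 56.7 M reads, so 3 reads were worth a signal of 1.03 to 11.7. Vip did not bear out the genotype labels: its signal ran from 0 to 93 in WT normoxia, from 0 to 6.77 in WT hypoxia, from 1.16 to 5.54 in VIPKO normoxia and from 1.08 to 106 in VIPKO hypoxia, with the 106 in the library labelled VIPKO hypoxia 4. Groups are therefore named as the labels give them. The Y-linked gene Ddx3y was at 1050 or more in 11 libraries (4 of 6 in WT normoxia, 2 of 5 in WT hypoxia, 3 of 4 in VIPKO normoxia, 2 of 5 in VIPKO hypoxia) and at 0.696 or less in the other libraries. WT hypoxia 5 carried a summed signal of 91820 over 10 basal and squamous epithelium markers, against 15.7 to 155 in 18 libraries and 1183 in VIPKO hypoxia 3. Its keratins Krt13 and Krt4 stood at 39977 and 43127, and its skeletal muscle markers summed to 39130. Calls of enzyme genes that rest on WT hypoxia 5 or VIPKO hypoxia 3 are given with and without them. Marker counts, and the counts and genes of the other lists, are given with all libraries only. The lung markers Sftpc, Ager and Pecam1 were present in every library, and albumin, the main liver secretory transcript, was at 0 to 19.4.

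Metabolism of foreign compounds proceeds in phases. Phase I enzymes such as the P450s and flavin-containing monooxygenases add or expose a polar group, often in the endoplasmic reticulum with electrons from P450 oxidoreductase, and dehydrogenases oxidise the alcohols and aldehydes that follow. Phase II enzymes conjugate the product to glutathione or sulfate. In the mouse lung much of this capacity sits in the club cells of the conducting airways, which makes these cells a known target of compounds that P450s turn into reactive products.

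Cyp2a5, Sult1d1 and Adh7 were the genes whose response to hypoxia differed between the genotypes at the threshold used below. Their promoters, from 250 bases before to 50 bases after the RefSeq start in GRCm38.p6, are shown to make plain that the genes lie on separate chromosomes and to mark the xenobiotic response letters found in them. Capitals mark the core of the dioxin response element (GCGTG on the strand opposite to the one printed, hence CACGC), the letters bound by the aryl hydrocarbon receptor with its partner.
Cyp2a5, chr7:26835089-26835388, plus strand: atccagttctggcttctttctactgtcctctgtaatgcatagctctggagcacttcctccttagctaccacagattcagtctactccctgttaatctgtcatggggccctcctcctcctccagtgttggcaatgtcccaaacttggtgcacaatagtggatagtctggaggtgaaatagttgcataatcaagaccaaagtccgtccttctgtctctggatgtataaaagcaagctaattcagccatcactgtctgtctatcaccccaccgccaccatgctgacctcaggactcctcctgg
Sult1d1, chr5:87568957-87569256, minus strand: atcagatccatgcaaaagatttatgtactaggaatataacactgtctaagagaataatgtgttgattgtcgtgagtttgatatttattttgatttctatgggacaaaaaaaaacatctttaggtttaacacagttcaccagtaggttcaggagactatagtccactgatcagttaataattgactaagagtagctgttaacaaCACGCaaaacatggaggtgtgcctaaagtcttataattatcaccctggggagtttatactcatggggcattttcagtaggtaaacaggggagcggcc
Adh7, chr3:138217523-138217822, plus strand: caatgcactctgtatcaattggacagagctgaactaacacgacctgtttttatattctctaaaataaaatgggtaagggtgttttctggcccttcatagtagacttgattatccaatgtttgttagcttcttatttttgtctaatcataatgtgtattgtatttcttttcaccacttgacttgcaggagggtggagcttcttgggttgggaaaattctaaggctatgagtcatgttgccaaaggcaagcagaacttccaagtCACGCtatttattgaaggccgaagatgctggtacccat
The core began at base 204 of the Sult1d1 window and base 263 of the Adh7 window, and these letters were not found in the Cyp2a5 window, nor in those of Cyp2e1 and Fmo6, which also differed between the groups. Promoters were found for 43 of the 51 genes, 52 windows in all. On either strand, GCGTG was present in 18 of the 52 (34.6%), from 16 genes, against 32.4% of 32851 mouse promoters of the same length. The core of the antioxidant response element, TGACNNNGC, to which NRF2 binds, was present in 7 of the 52 (13.5%) against 12.4% of all promoters. Its 7 genes were Aldh1a2, Cyp2j6, Cyp4f18, Cyp4f39, Gsta3, Gstm5 and Gstm7. Any overlap between the 2 motifs was allowed, and a match describes letters only.

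Per kb of the longest annotated transcript, Cyp2f2 stood far above the other genes, with a mean signal per kb of 17792 over 20 libraries, higher than 99.9% of the genes kept. Cyp2f2 is the P450 of club cells that activates naphthalene. Aldh1a1, a retinal dehydrogenase, followed at 5733 per kb, and Fmo2, the main lung flavin-containing monooxygenase, at 5102 per kb. Cyp4b1, which hydroxylates fatty acids and activates pneumotoxic furans, stood at 3401 per kb, the glutathione transferase Gstm1 at 3388 per kb and Cyp2b10 at 2890 per kb. Ranks 7 to 10 were Fmo1 (1403 per kb), Gstp1 (1270 per kb), Gstm2 (1265 per kb) and Adh1 (1002 per kb). At the low end, Cyp2b19, Fmo6, Sult6b1 and Cyp2c23 stood between 3.41 and 5.94 per kb. Cyp2a5 was at rank 17 with 392 per kb, Cyp2e1 at rank 26 with 93.0 per kb, Sult1d1 at rank 29 with 68.6 per kb and Adh7 at rank 32 with 53.9 per kb.

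**Figure D1:**
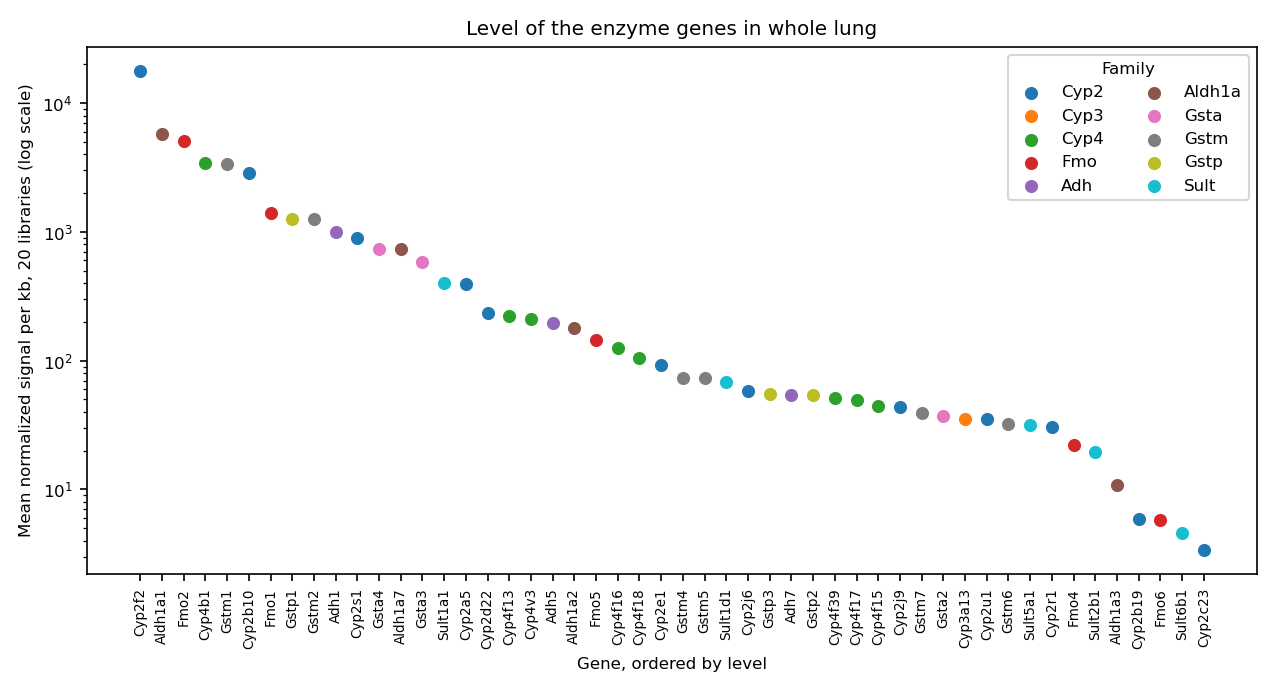
Mean normalized signal per kb of transcript over 20 libraries (log scale) for 50 of the 51 enzyme genes, ordered by level and coloured by family. Cyp2f2 stands at 17792 per kb, and the lowest gene, Cyp2c23, at 3.41 per kb.

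In WT lungs, hypoxia went with higher levels of enzymes of both phases. Of the 51 genes, 13 rose and none fell, beside 7.88% of all genes that rose and 6.77% that fell (14.7% called in either direction). Of these 13, the 12 described here were Cyp2a5, Cyp2e1, Fmo5, Fmo6, Adh5, Adh7, Aldh1a3, Gsta4, Gstp1, Gstp2, Gstp3 and Sult1d1. The difference was above 0 in 43 of the 51 genes, with a median log2 difference of 0.34 against -0.01 over all genes. An unadjusted p below 0.05 was reached by 26. The count was 9 without WT hypoxia 5 and 15 without both WT hypoxia 5 and VIPKO hypoxia 3. Leaving out 1 library at a time, it ran from 7 without WT hypoxia 3 to 23 without WT hypoxia 4, the shallowest library, and was 8 without WT normoxia 4. Over all genes the count moved too, from 1382 to 4710 in the fits that left out 1 library, against 3173 with all libraries. In bulk lung, a change in the number of cells of a type and a change in RNA per cell cannot be told apart.

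In VIPKO lungs, hypoxia gave few calls over all genes. Of the 51 genes, 0 rose and 1, Fmo1, fell, beside 0.614% and 0.383% of all genes (0.997% in either direction). These counts were near the share over all genes. The median log2 difference was -0.03, with 20 genes above 0, and 8 genes had an unadjusted p below 0.05. In normoxia, VIPKO lungs stood above WT lungs in 5 of the 51 genes (Cyp2a5, Cyp2e1, Fmo6, Adh7 and Sult1d1) and below in none, beside 4.69% and 3.96% of all genes (8.65% in either direction). The median was 0.23, with 38 genes above 0 and 14 with an unadjusted p below 0.05. In hypoxia, 1 of the 51, Fmo1, was lower in VIPKO and none was higher, beside 0.9% and 0.716% of all genes (1.62% in either direction), with a median of -0.19, 12 genes above 0 and 14 with an unadjusted p below 0.05. The response to hypoxia differed between genotypes for Cyp2a5, Sult1d1 and Adh7, all lower in VIPKO, beside 0.148% of all genes lower and 0.134% higher (0.282% in either direction). This interaction, the hypoxia difference in VIPKO minus that in WT, had a median of -0.33 over the 51 genes, with 5 above 0 and 15 with an unadjusted p below 0.05. The interaction count was 9 without WT hypoxia 4, 6 without VIPKO hypoxia 3 and 1 in 11 of the other fits that left out 1 library. Over all genes the interaction count ran from 4 to 541 in such fits, against 61 with all libraries. The comparison of genotypes in normoxia and that of oxygen in WT share the WT normoxia libraries, so their values are not independent.

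VIPKO normoxia 2, VIPKO normoxia 3 and VIPKO hypoxia 2 had the lowest positions on the first principal component (-59.2, -75.4 and -65.4). Without these 3 libraries, which leaves 2 VIPKO normoxia libraries, 0 of the 51 genes and 0 of all genes were called by limma for the genotypes in normoxia. Of the 51, 11 had an unadjusted p below 0.05. The 5 differences called with all libraries remained of like size. They were 2.95 for Cyp2a5, 2.25 for Sult1d1, 2.53 for Fmo6, 1.99 for Cyp2e1 and 1.51 for Adh7, with adjusted p from 0.0871 to 0.171. The interaction and both comparisons with VIPKO hypoxia also held 0 called genes of the 51 without them (11, 3 and 10 at an unadjusted p below 0.05, for the interaction, hypoxia in VIPKO and the genotypes in hypoxia), while 11 of the 51 were called for hypoxia in WT.

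**Figure D2:**
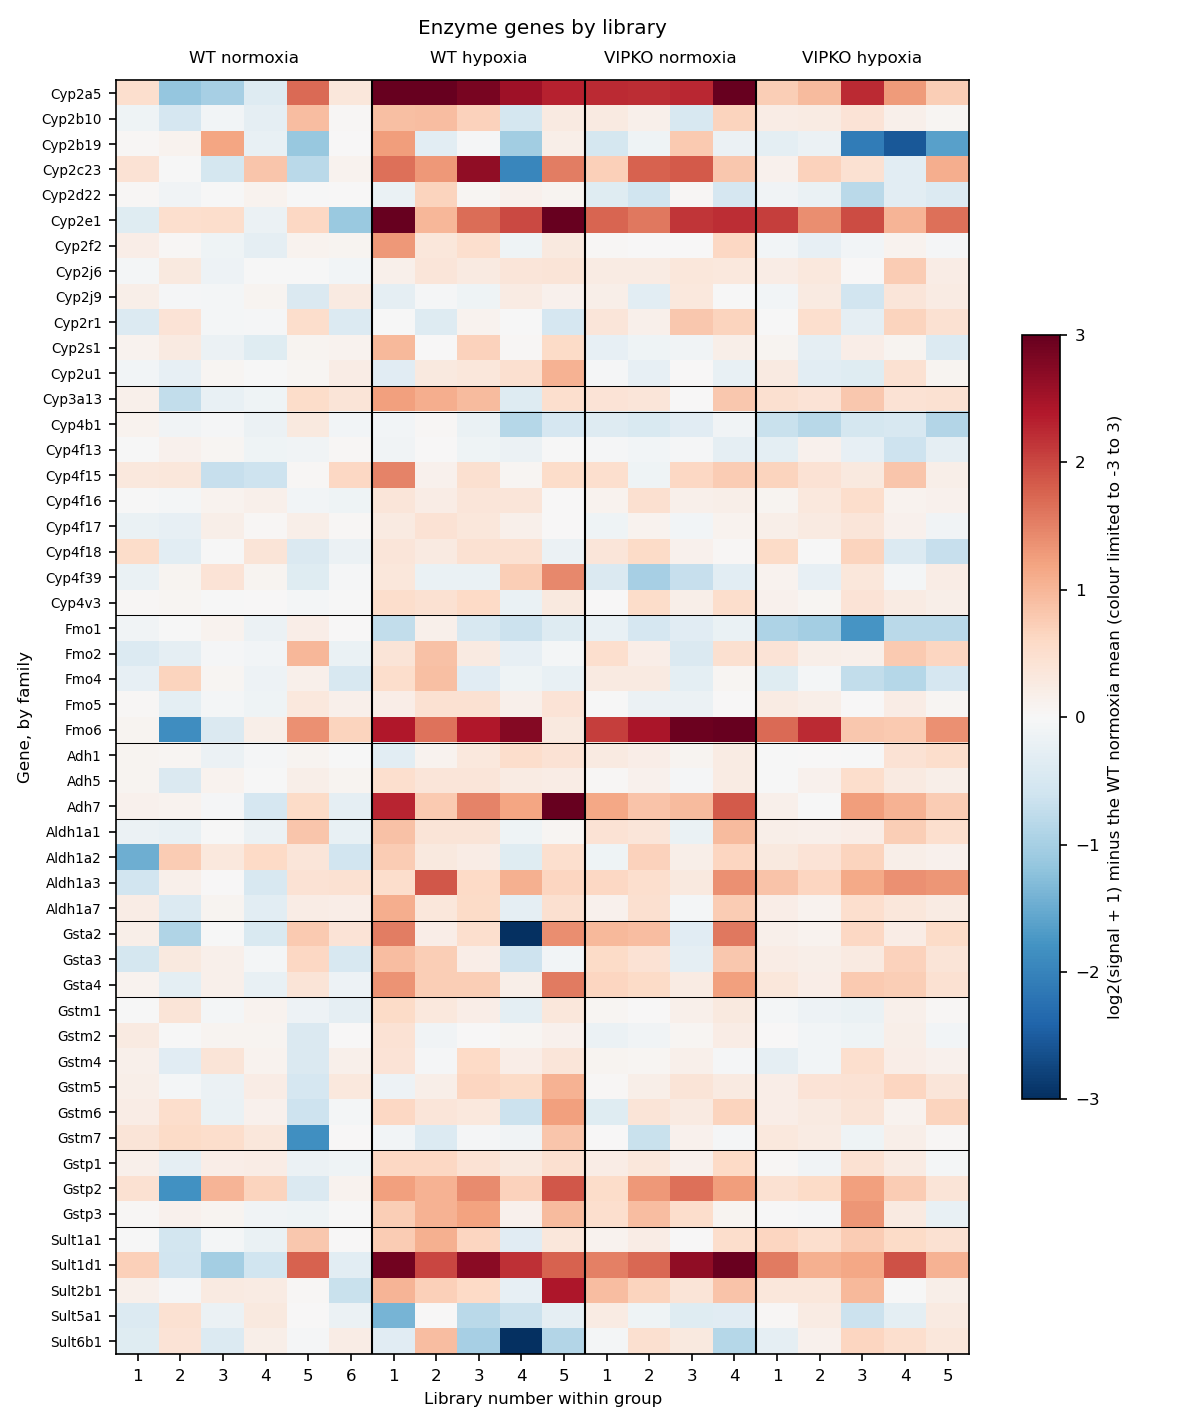
Log2(signal + 1) of 50 of the 51 enzyme genes in each of the 20 libraries, minus the gene's mean in WT normoxia, with the colour limited to -3 to 3 and lines between families and groups. Cyp2a5, Cyp2e1, Fmo6, Adh7 and Sult1d1 are higher in most WT hypoxia and VIPKO normoxia libraries than in WT normoxia, and most Gstm and Cyp4 genes differ little.

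Among the Cyp2 genes, Cyp2a5, the P450 that hydroxylates coumarin and oxidises nicotine and nasal toxicants, differed most. Its signal ran from 82.1 to 608 in WT normoxia, with a median of 188. The WT hypoxia values, in replicate order as for all genes here, were 1941, 1810, 1331, 1081 and 925. The VIPKO normoxia values were 881, 867, 896 and 2332. All libraries of both these groups thus lay above the highest WT normoxia library. The VIPKO hypoxia values were 308, 357, 884, 450 and 308. All 5 lay below every WT hypoxia library, and all but VIPKO hypoxia 3 lay below every VIPKO normoxia library. Hypoxia in WT raised the log2 level by 2.87 ± 0.42 (7.31-fold, adjusted p = 0.00117), and VIPKO exceeded WT in normoxia by 2.59 ± 0.45 (6.04-fold, adjusted p = 0.00335). In VIPKO the hypoxia difference was -1.41 ± 0.47 (adjusted p = 0.182), and between genotypes in hypoxia it was -1.69 ± 0.44 (adjusted p = 0.0549). The interaction was -4.28 ± 0.63 (adjusted p = 0.0117) and was called whichever single library was left out, with adjusted p up to 0.0402. Of the 50-base words in its annotated transcripts, 40.8% recur in other genes, 31.0% in Cyp2a4. Cyp2a4 itself was listed at 0 to 12.7, and how shared reads were split between these paralogues is uncertain.

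Cyp2e1, the ethanol-inducible P450, followed the same order of groups in normoxia and in WT. Its signal ran from 22 to 74.6 in WT normoxia, with a median of 55.9. It was 441, 98.1, 158, 194 and 666 in WT hypoxia and 166, 148, 216 and 229 in VIPKO normoxia, all above the WT normoxia range. In VIPKO hypoxia it was 207, 128, 190, 98.5 and 155, also above WT normoxia and overlapping both other groups. The difference was 2.32 ± 0.40 for hypoxia in WT (adjusted p = 0.0024) and 1.93 ± 0.42 for VIPKO in normoxia (adjusted p = 0.0106). In VIPKO the hypoxia difference was -0.31 ± 0.44 (adjusted p = 0.796). The interaction of -2.63 ± 0.59 was not called (adjusted p = 0.0619). Leaving out 1 library at a time, it ran from -2.96 to -2.27 with adjusted p from 0.0288 to 0.165, and 3 of 20 fits called it, those without WT hypoxia 2, WT hypoxia 4 or VIPKO hypoxia 3. Without both WT hypoxia 5 and VIPKO hypoxia 3 it was -2.35 (adjusted p = 0.039). WT hypoxia 5, the library with squamous and muscle transcripts, had the highest value of its group, and without it the hypoxia difference in WT was 1.96 (adjusted p = 0.00654).

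The most abundant Cyp2 genes moved less. Cyp2f2 ran from 24188 to 33396 in WT normoxia, with a median of 30417, and was 72084, 36849, 41197, 26865 and 36060 in WT hypoxia. All but WT hypoxia 4 of these lay above the WT normoxia range, and the difference of 0.46 ± 0.18 was not called (adjusted p = 0.0814). Its VIPKO normoxia values were 29968, 29408, 29631 and 44926 and its VIPKO hypoxia values 27822, 24673, 27541, 31721 and 28649, so both groups overlapped WT normoxia. Cyp2b10, the phenobarbital-inducible P450, ran from 3241 to 8747 in WT normoxia and was 8589, 8793, 7443, 3211 and 5574 in WT hypoxia, with overlapping groups (0.46 ± 0.25, adjusted p = 0.207). Cyp2s1 differed by 0.46 ± 0.16 for hypoxia in WT (adjusted p = 0.0581) and by -0.52 ± 0.17 between genotypes in hypoxia (adjusted p = 0.101). Of the 12 Cyp2 genes, 2 rose in WT hypoxia, and the remaining 10 had log2 differences between -0.16 and 1.04. Cyp2c23, an arachidonate epoxygenase, had the 1.04 (± 0.60, adjusted p = 0.236) and rested on 0 to 17 estimated reads a library.

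Cyp3a13, the single Cyp3 gene at this level and a drug-metabolising P450, had a median of 77 in WT normoxia (45.3 to 112). In WT hypoxia it was 179, 162, 148, 58.3 and 109, with a difference of 0.68 ± 0.26 (adjusted p = 0.076). The 8 Cyp4 genes, fatty acid hydroxylases, gave no call by limma in any of the 5 comparisons, with 1 to 3 of the 8 at an unadjusted p below 0.05 in each. Cyp4b1, the highest of them, ran from 6866 to 9481 in WT normoxia and was 7408, 8003, 6837, 4299 and 5512 in WT hypoxia. It was 5970, 5724, 6116 and 7229 in VIPKO normoxia and 4925, 4349, 5401, 5613 and 4234 in VIPKO hypoxia, so each VIPKO hypoxia library lay below each WT normoxia and each VIPKO normoxia library. Its differences were -0.32 ± 0.13 for hypoxia in WT, -0.36 ± 0.15 for hypoxia in VIPKO and -0.36 ± 0.14 between genotypes in hypoxia, with adjusted p of 0.104, 0.305 and 0.164. Cyp4v3, another fatty acid hydroxylase, ran from 664 to 719 in WT normoxia and was 1007, 963, 1056, 603 and 855 in WT hypoxia (0.34 ± 0.12, adjusted p = 0.0658).

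**Figure D3:**
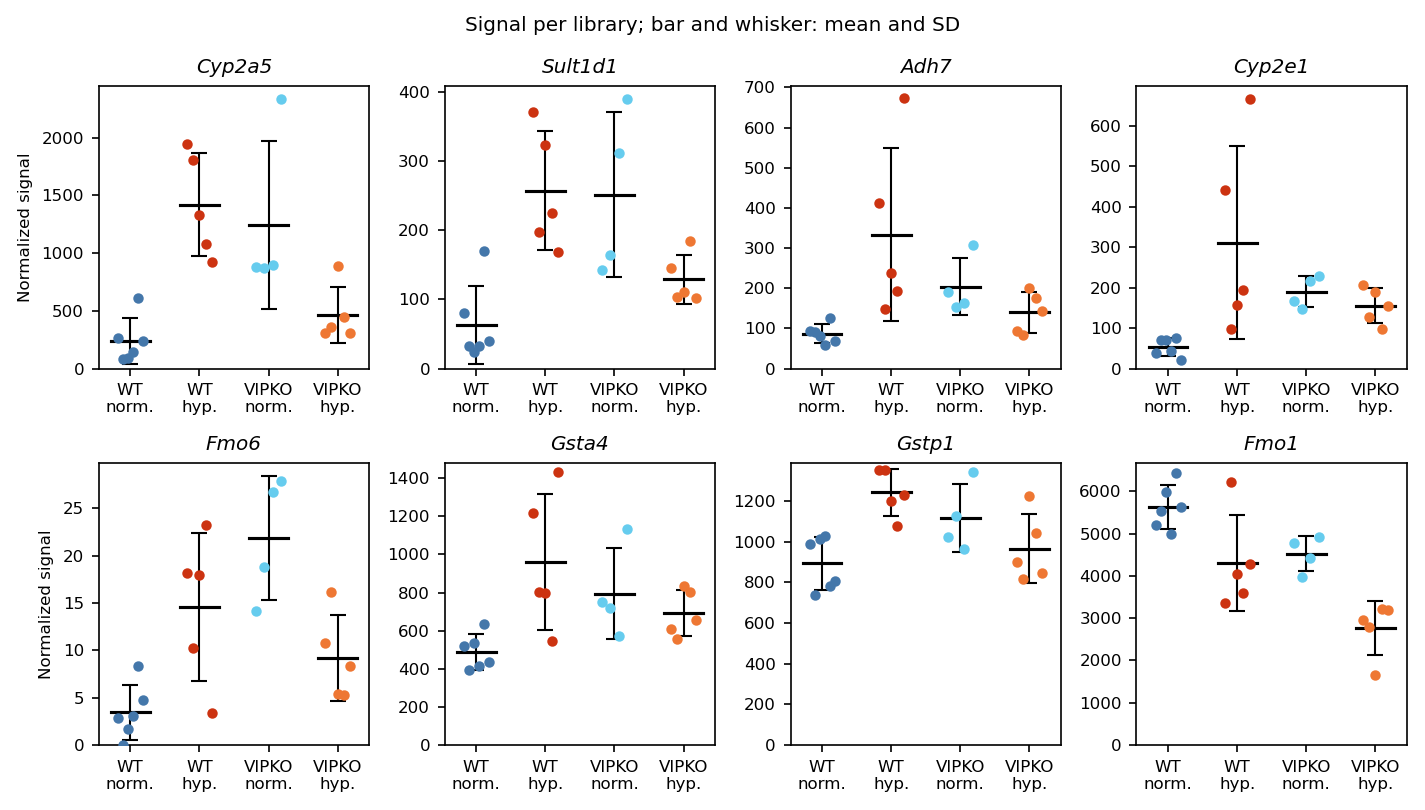
Normalized signal of 8 enzyme genes, 1 point per library, with the mean and SD of each group (WT normoxia n = 6, WT hypoxia n = 5, VIPKO normoxia n = 4, VIPKO hypoxia n = 5). The WT hypoxia and VIPKO normoxia points of Cyp2a5 lie above all WT normoxia points, and the VIPKO hypoxia points of Fmo1 lie below those of the other groups.

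The flavin-containing monooxygenases oxidise nitrogen and sulfur atoms of drugs and dietary amines. Fmo4, Fmo1, Fmo2 and Fmo6 lie close together on chromosome 1, from 162793188 to 162937515 on the minus strand of GRCm38. Their log2 differences for hypoxia in WT were 0.15, -0.42, 0.25 and 1.89, in that order. For hypoxia in VIPKO they were -0.58, -0.75, 0.25 and -1.23, and between genotypes in hypoxia -0.65, -0.64, 0.19 and -0.50. Of these, the calls were Fmo6 for hypoxia in WT and Fmo1 in both other comparisons. Fmo1 ran from 4999 to 6441 in WT normoxia, with a median of 5580, and was 3357, 6211, 4036, 3588 and 4291 in WT hypoxia. It was 4782, 3978, 4420 and 4908 in VIPKO normoxia, below every WT normoxia library, and 2957, 2782, 1658, 3205 and 3195 in VIPKO hypoxia, below every library of the other 3 groups. Fmo1 fell by 0.75 on the log2 scale with hypoxia in VIPKO (SE 0.17, adjusted p = 0.039) and was lower in VIPKO than in WT under hypoxia by -0.64 ± 0.16 (adjusted p = 0.0495). Both calls were near the threshold. The first was lost in 10 of 20 fits that left out 1 library, the second in 17 of 20. Without VIPKO hypoxia 3, which had the 1658 and carried thymic and basal markers, the first difference was -0.57 (adjusted p = 0.0572) and the second -0.47 (adjusted p = 0.0423). Without WT hypoxia 5 the second was -0.63 (adjusted p = 0.0735), and without both libraries they were -0.57 and -0.46 (adjusted p = 0.0691 and 0.0659). With a term for Y-linked expression the first was -0.68 (adjusted p = 0.0586).

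Fmo2, the highest Fmo gene, ran from 13042 to 34376 in WT normoxia and was 22488, 31554, 20722, 14581 and 16530 in WT hypoxia. It was 24490, 19842, 12645 and 24079 in VIPKO normoxia and 22811, 19556, 19217, 29792 and 26952 in VIPKO hypoxia, and all 4 groups overlapped. Fmo5, which acts on esters and ketones, ran from 566 to 869 in WT normoxia and was 801, 964, 955, 781 and 929 in WT hypoxia (0.34 ± 0.10, adjusted p = 0.0271). Its groups overlapped, and 5 of 20 fits that left out 1 library lost the call, among them that without WT hypoxia 5 (0.32, adjusted p = 0.0607).

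Fmo6 was scarce. It ran from 0 to 8.4 in WT normoxia, or 0 to 14 estimated reads, and was 18.2, 10.2, 18, 23.3 and 3.43 in WT hypoxia. It was 14.2, 18.8, 26.7 and 27.9 in VIPKO normoxia, above every WT normoxia library, and 10.8, 16.2, 5.39, 5.24 and 8.39 in VIPKO hypoxia. VIPKO exceeded WT in normoxia by 2.61 ± 0.55 (adjusted p = 0.00888), and hypoxia in WT raised it by 1.89 ± 0.52 (adjusted p = 0.0221). With a pseudocount of 8 in place of 1 these differences were 1.39 and 0.93. The second call was lost without WT hypoxia 1 or WT hypoxia 3, with adjusted p up to 0.0629. The interaction of -3.12 ± 0.77 was not called (adjusted p = 0.0817). Without WT hypoxia 5 it was -3.52 (adjusted p = 0.0452).

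The alcohol dehydrogenases oxidise ethanol, retinol and other alcohols, and the genes Adh7, Adh1 and Adh5 lie close together on chromosome 3. Adh7, the class IV enzyme of surface epithelia that is active on retinol, ran from 59.6 to 127 in WT normoxia, with a median of 86.4. It ran from 147 to 673 in WT hypoxia, with a median of 239, and was 191, 153, 163 and 307 in VIPKO normoxia, with every library of both groups above the WT normoxia range. In VIPKO hypoxia it was 94.6, 84.3, 201, 175 and 143, overlapping WT normoxia. The differences were 1.75 ± 0.33 for hypoxia in WT (adjusted p = 0.00378), 1.20 ± 0.35 for VIPKO in normoxia (adjusted p = 0.0364) and -2.31 ± 0.49 for the interaction (adjusted p = 0.0438). WT hypoxia 5 held the 673, and without it the first was 1.44 (adjusted p = 0.00951) and the interaction -2.0 (adjusted p = 0.0481). The first held in all 20 fits that left out 1 library, the second was lost in 7 and the interaction in 14. Adh5, the glutathione-dependent formaldehyde dehydrogenase, ran from 474 to 726 in WT normoxia and was 912, 832, 826, 770 and 757 in WT hypoxia. These groups did not overlap, and Adh5 rose by 0.34 ± 0.11 (adjusted p = 0.0383), a call lost in 7 of the 20 fits, among them that without WT hypoxia 5 (0.37, adjusted p = 0.051). Adh1, the classical liver-type enzyme, was not called (0.21 ± 0.13 for hypoxia in WT, adjusted p = 0.259).

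The Aldh1a family includes enzymes that oxidise retinal to retinoic acid. Aldh1a1 ran from 9360 to 19429 in WT normoxia and from 10037 to 20376 in WT hypoxia, with a difference of 0.32 ± 0.21 (adjusted p = 0.299). Aldh1a7, its close paralogue and neighbour on chromosome 19, had a difference of 0.44 ± 0.19 (adjusted p = 0.111). Aldh1a3 was scarce and was the 1 member that rose: it ran from 14.1 to 29.9 in WT normoxia and was 31.7, 81.2, 33.2, 46.6 and 34.3 in WT hypoxia, with no overlap. The difference was 0.95 ± 0.28 (adjusted p = 0.0304) and was not called without WT normoxia 1, WT normoxia 4 or WT hypoxia 2, with adjusted p up to 0.0759. Its VIPKO normoxia values were 33.7, 31.0, 26.7 and 57.0, and its VIPKO hypoxia values 39.7, 34.3, 48.5, 57.7 and 55.1, above the WT normoxia range in all libraries but VIPKO normoxia 3. Neither the genotype difference in normoxia (0.70 ± 0.30, adjusted p = 0.148) nor the hypoxia difference in VIPKO (0.37 ± 0.31, adjusted p = 0.638) was called.

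The glutathione S-transferases detoxify electrophiles. Gsta4, which conjugates the lipid peroxidation product 4-hydroxynonenal, ran from 392 to 634 in WT normoxia, with a median of 478, and was 1218, 802, 800, 544 and 1430 in WT hypoxia. All but WT hypoxia 4 lay above the WT normoxia range. Gsta4 rose by 0.91 ± 0.21 (adjusted p = 0.0112) and by 0.74 without WT hypoxia 5, its highest library (adjusted p = 0.031). In VIPKO it was 751, 717, 574 and 1134 in normoxia and 609, 557, 835, 805 and 657 in hypoxia, and the normoxia difference of 0.68 ± 0.22 from WT was not called (adjusted p = 0.0638). Gstp1, the main lung pi-class enzyme, ran from 739 to 1027 in WT normoxia and was 1353, 1354, 1199, 1077 and 1228 in WT hypoxia, with no overlap. It rose by 0.48 ± 0.12 (adjusted p = 0.0145), and leaving out any 1 library did not end the call of Gsta4 or Gstp1. In VIPKO, Gstp1 was 1025, 1128, 962 and 1344 in normoxia and 901, 818, 1223, 1045 and 845 in hypoxia.

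Gstp2 and Gstp3 lie next to Gstp1 on chromosome 19 and rose too, so that all 3 Gstp genes were called for hypoxia in WT. Gstp2 ran from 5.67 to 47.0 in WT normoxia and was 54.6, 47.7, 62.5, 37.4 and 84.8 in WT hypoxia (1.25 ± 0.38, adjusted p = 0.0339), which was 1.10 without WT hypoxia 5 (adjusted p = 0.0869). Gstp3 ran from 25.8 to 31.1 in WT normoxia and was 48.3, 59.2, 66.4, 31.1 and 56.0 in WT hypoxia (0.81 ± 0.26, adjusted p = 0.0402), with WT hypoxia 4 level with the highest WT normoxia library, and the call was lost in 10 of 20 fits that left out 1 library. With a term for Y-linked expression it was 0.79 (adjusted p = 0.0531). Without WT hypoxia 5 its difference was 0.78 (adjusted p = 0.0825). Of the 50-base words in Gstp2, 72.6% recur elsewhere, 64.3% in Gstp1, so reads of Gstp1 and Gstp2 could be exchanged in counting and the Gstp2 values are uncertain. Gstp3 shared none. None of the 6 Gstm genes was called by limma in any comparison, and at most 1 of the 6 had an unadjusted p below 0.05 in each. Gstm1, the highest of them, ran from 3383 to 5401 in WT normoxia and was 6112, 5115, 4744, 3353 and 5203 in WT hypoxia (0.23 ± 0.13, adjusted p = 0.217). Gstm2 differed by 0.10 ± 0.11 (adjusted p = 0.547).

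Among the sulfotransferases, which add sulfate to phenols, amines and steroids, Sult1d1 stood apart. Sult1d1 acts on catecholamines and other small phenols. It ran from 23.5 to 170 in WT normoxia, with a median of 36.0, and was 371, 198, 324, 225 and 169 in WT hypoxia. It was 142, 164, 312 and 390 in VIPKO normoxia and 145, 103, 111, 185 and 102 in VIPKO hypoxia. Apart from the 170 in WT normoxia 5, each library of these 3 groups lay above each WT normoxia library. Sult1d1 rose by 2.31 ± 0.40 with hypoxia in WT (adjusted p = 0.0024) and was 2.22 ± 0.42 higher in VIPKO in normoxia (adjusted p = 0.00584), calls that held in all 20 fits that left out 1 library. In VIPKO the hypoxia difference was -0.87 ± 0.44 (adjusted p = 0.41). The interaction was -3.18 ± 0.59 (adjusted p = 0.0293) and was lost in 11 of those 20 fits, with adjusted p up to 0.101. Sult1a1, the phenol sulfotransferase and highest of the family, ran from 289 to 747 in WT normoxia and was 715, 890, 664, 334 and 533 in WT hypoxia (0.49 ± 0.21, adjusted p = 0.114). Sult5a1 had a negative difference of -0.62 ± 0.23 (adjusted p = 0.0672).

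**Figure D4:**
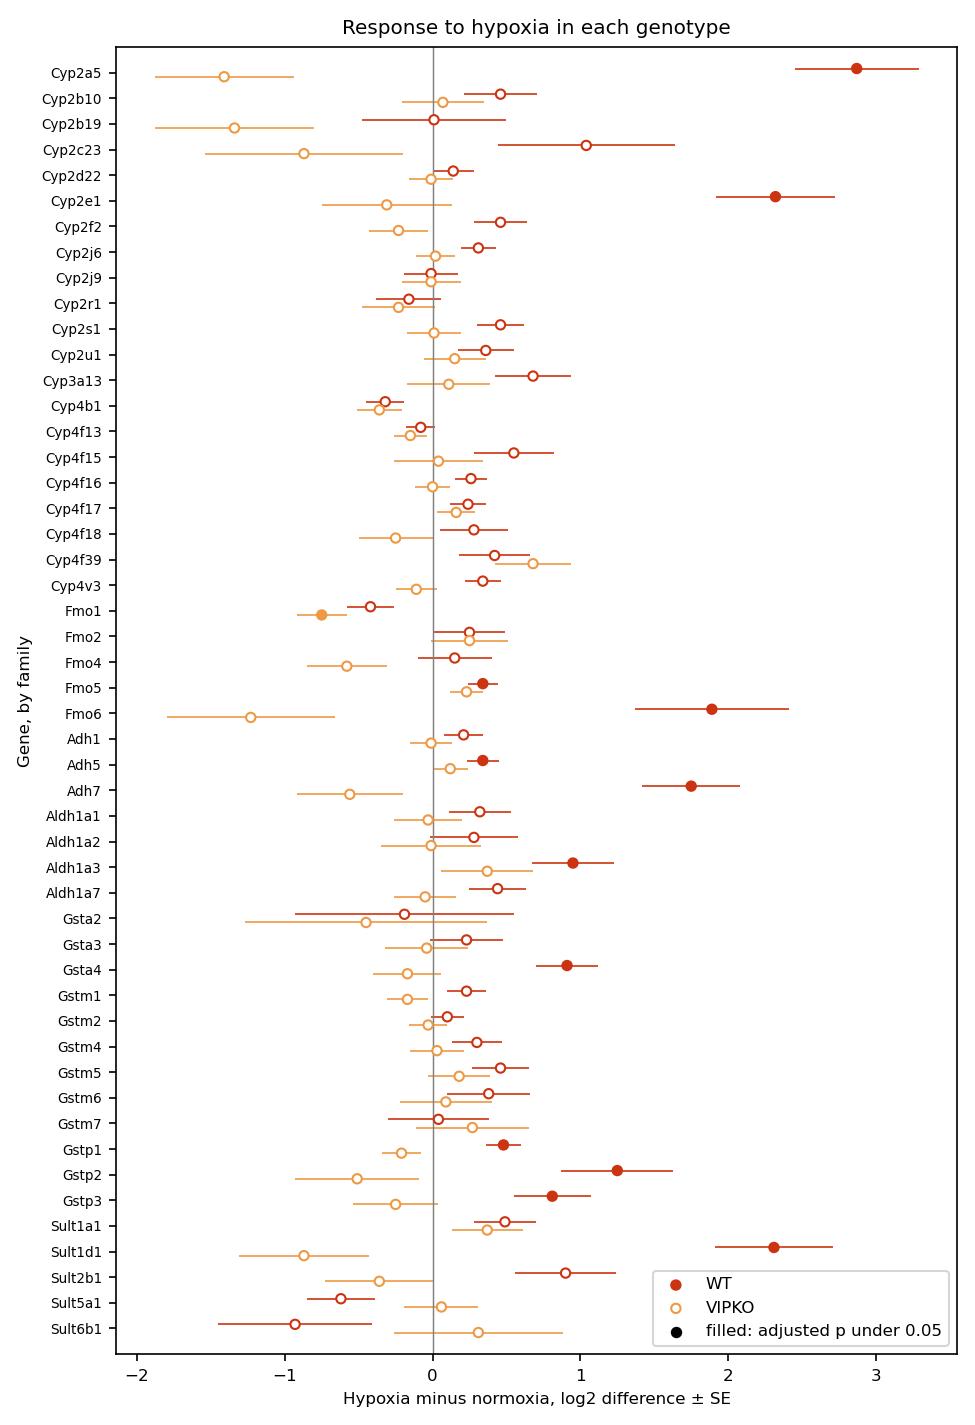
Log2 difference between hypoxia and normoxia with its SE for 50 of the 51 enzyme genes, in WT (red) and VIPKO (orange), filled where the adjusted p was under 0.05. In WT 12 points are filled, all to the right of 0, and in VIPKO 1 point is filled, Fmo1, to the left.

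Airway secretory markers also differed between the groups. The marker counts stand beside 7.88% of all genes that rose and 6.77% that fell with hypoxia in WT. For VIPKO in normoxia the shares were 4.69% higher and 3.96% lower, and for hypoxia in VIPKO 0.614% and 0.383%. An absence of calls for hypoxia in VIPKO is thus near the share over all genes. Over 8 club cell markers (without Cyp2f2 and Aldh1a1), the summed signal ran from 174569 to 244283 in WT normoxia, from 190903 to 490809 in WT hypoxia, from 286898 to 485798 in VIPKO normoxia and from 242251 to 369647 in VIPKO hypoxia. Scgb1a1 made up most of this sum in every library, as with 366764 of the 490809 in WT hypoxia 1, so the sum mainly describes that transcript. Of the 8, 3 rose with hypoxia in WT and 4 were higher in VIPKO in normoxia, and none was called for hypoxia in VIPKO (1 at an unadjusted p below 0.05). The goblet and gland markers differed more: 8 of 10 rose with hypoxia in WT (median log2 difference 3.03) and 7 of 10 were higher in VIPKO in normoxia (median 2.87). None of these markers was called for hypoxia in VIPKO (median -0.08, 1 at an unadjusted p below 0.05). Their sum ran from 1741 to 8490 in WT normoxia, from 8697 to 15897 in WT hypoxia, from 5936 to 17404 in VIPKO normoxia and from 7773 to 18614 in VIPKO hypoxia. In WT normoxia all 10 markers were present, but 2 of them had a mean under 10. WT normoxia 5 had the highest gland sum of its group, 8490, and also its highest Cyp2a5 (608), Sult1d1 (170) and Adh7 (127). VIPKO hypoxia 3 had the highest gland sum of its group, 18614, and its highest Cyp2a5 (884) and Adh7 (201), but only the median Sult1d1 (111). In the other groups they did not go together. VIPKO normoxia 2 had the highest gland sum, 17404, with the lowest Cyp2a5 (867) and Adh7 (153). Its Sult1d1 was 164, against a group median of 238. WT hypoxia 3 had the highest gland sum, 15897, with the median Cyp2a5 (1331) and Adh7 (239). Its Sult1d1 was 324, against a group median of 225. In each of the 4 groups the library with the highest club sum also had the highest Cyp2f2, as in WT hypoxia 1 (490809 and 72084) and VIPKO normoxia 4 (485798 and 44926). Of 10 ciliated cell markers, 7 rose with hypoxia in WT and 5 were higher in VIPKO in normoxia. Of 10 alveolar macrophage markers, 5 were called higher in each of these comparisons. Their sum was 80835 in VIPKO normoxia 2, against 9936, 9662 and 17118 in VIPKO normoxia 1, 3 and 4. Of 10 adipocyte markers, 8 rose with hypoxia in WT, with the highest sum, 28600, in WT hypoxia 5. Markers outside the airway moved as well: 8 of 10 type 2 alveolar cell markers rose with hypoxia in WT (median 0.60, all 10 at an unadjusted p below 0.05), 1 was higher in VIPKO in normoxia and none was called for hypoxia in VIPKO (1 at an unadjusted p below 0.05). Of 10 endothelial markers, 3 were lower with hypoxia in WT and 3 in VIPKO in normoxia. The part of these cell types in the enzyme differences was not tested.

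**Figure D5:**
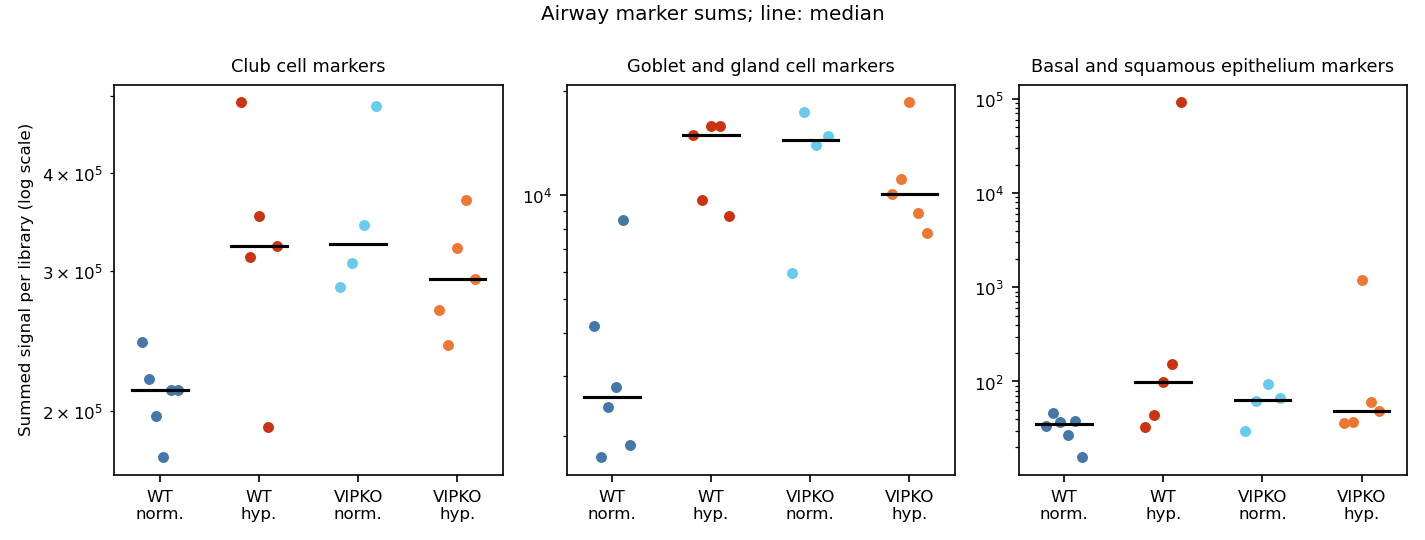
Summed signal (log scale) of club cell, goblet and gland cell, and basal and squamous epithelium markers in each library, with the group median as a line. Club and gland sums are higher in most WT hypoxia and VIPKO normoxia libraries than in WT normoxia, and WT hypoxia 5 stands at 91820 for the basal and squamous markers. The club sum is mostly Scgb1a1.

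Other genes of the same pathways were taken from lists chosen with earlier results of these data known. Their counts for hypoxia in WT stand beside 7.88% of all genes that rose. The lists overlap, as for Nqo1, so their counts are not independent. For hypoxia in WT, 4 of 11 P450 redox partners rose and none fell, among them Por, the oxidoreductase that feeds electrons to microsomal P450s (0.72 ± 0.19, adjusted p = 0.019), and Cyb5r3, the cytochrome b5 reductase (0.47 ± 0.11, adjusted p = 0.0106). Of 32 esterases, reductases and other phase I enzymes, 13 rose, led by Ephx1, the microsomal epoxide hydrolase (0.74 ± 0.14, adjusted p = 0.00467). Of 14 further alcohol and aldehyde dehydrogenases 5 rose, and of 28 further conjugation enzymes 7 rose, led by Gsto1, an omega-class glutathione transferase (1.00 ± 0.18, adjusted p = 0.00331). Gsto1 was also higher in VIPKO in normoxia (0.91 ± 0.19, adjusted p = 0.00916), and its interaction was -1.34 ± 0.27 (adjusted p = 0.0384). Its group means were 670 in WT normoxia, 1326 in WT hypoxia, 1274 in VIPKO normoxia and 1004 in VIPKO hypoxia.

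Of 18 NRF2 target genes, which answer oxidants and electrophiles, 12 rose with hypoxia in WT and none fell, with a median of 0.47, beside 7.88% of all genes that rose. Led by Me1 (1.05 ± 0.21, adjusted p = 0.00626), the NADPH-producing malic enzyme, they included Taldo1 and Tkt of the pentose phosphate pathway (0.75 and 0.90) and the ferritin light chain Ftl1 (0.62). Nqo1, a standard NRF2 target, was not called (0.32 ± 0.27, adjusted p = 0.427), nor was Nfe2l2, which encodes NRF2 itself (0.35 ± 0.12, adjusted p = 0.0556). In normoxia 2 of the 18, Prdx1 (0.48 ± 0.11) and Gclm (0.44 ± 0.11), were higher in VIPKO, beside 4.69% of all genes. Of 19 xenobiotic sensing factors, 6 rose with hypoxia in WT, among them Pparg, Cebpa and Rxra. In normoxia 3 of the 19 were lower in VIPKO, beside 3.96% of all genes: Mafk (-0.51 ± 0.10), Mafg (-0.52 ± 0.10) and Rxrb (-0.29 ± 0.09). Of 12 retinoid pathway genes, none was called for hypoxia in WT, with 2 at an unadjusted p below 0.05. Of 12 genes tested in other Cyp families, 1 rose with hypoxia in WT and 1 was higher in VIPKO in normoxia, beside 7.88% and 4.69% of all genes. For hypoxia in VIPKO and between genotypes in hypoxia 1 was lower, Cyp1a1, beside 0.383% and 0.9% of all genes. Cyp1a1, the P450 most responsive to the aryl hydrocarbon receptor, had group means of 251 in WT normoxia, 142 in WT hypoxia, 143 in VIPKO normoxia and 19.8 in VIPKO hypoxia. It fell by 2.83 on the log2 scale with hypoxia in VIPKO (SE 0.52, adjusted p = 0.00777) and was lower in VIPKO than in WT under hypoxia (-2.59 ± 0.49, adjusted p = 0.0153). Ahr, the receptor, differed by -0.08 ± 0.14 for hypoxia in WT (adjusted p = 0.735), a comparison in which Cyp1a1 was not a called fall. For hypoxia in VIPKO and between genotypes in hypoxia, 0 of the 19 sensing factors, Ahr among them, were called. The shares over all genes there were 0.997% and 1.62% in either direction, and 4 and 6 of the 19 had an unadjusted p below 0.05.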

How the data were processed

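Total RNA from whole lung was extracted (RNeasy Mini Plus) and libraries were built (NEBNext Ultra II Directional), per the labels' protocols, and reads were processed in Partek against mm10, per the submitters' processing notes. Aligner, strand setting and normalization: not given in the sources used here. Deposited by the authors was 1 table of normalized gene values, treated as a signal. Of its lines, 55 of 30746 name no gene and were left out. All 20 libraries carry 1 batch label. Genes at 10 or more in at least 4 libraries were kept (21658), and log2(signal + 1) was fitted with limma 3.58.1 in R 4.3.3, with 4 group means and a variance trend. Benjamini-Hochberg adjustment ran over all genes kept (threshold 0.05). The steps were tested on simulated data. Depth was estimated from the smallest step of each library; low values lay within 0.05 reads of whole numbers for 41.5% (VIPKO hypoxia 2) to 89.8%, so no count model was run.

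Symbols were placed with GENCODE vM21 (GRCm38); 50-base words shared between transcripts were counted in its transcript sequences. Genes were named by rule: the 2 highest of each family, up to 12 called per comparison and up to 5 for the interaction by smallest p, the 2 genes on each side of the level threshold, and up to 4 called genes per other list. Gstp3, the 13th called for hypoxia in WT, and the genes Cyp2a4, Cyp2s1, Fmo4, Nqo1, Nfe2l2, Ahr and Sult5a1 were named after their values were seen. The genes and lists were chosen with earlier results of these data known. Alternatives covered the pseudocount, filter, rescaling, length and GC correction, a replicate block and left-out libraries; a term for Y-linked expression was added after seeing the data. Counts cover all 51 genes; 1 of them is not reported here by name.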

Additional observations from a re-analysis of the deposited data

Results flagged for a closer look

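In 116 groups of 29 named genes, 12 had 1 library far from the rest by Dixon's test at 95%, which chance gives in about 1 of 20 groups. WT normoxia 5 was the highest of its group for 5 genes: Aldh1a1 (19429, next 10875), Cyp2a5 (608, next 263), Cyp2b10 (8747, next 4731), Fmo2 (34376, next 16791) and Sult1a1 (747, next 430). WT normoxia 2 was the lowest of its group for Adh5 (474, next 642). VIPKO normoxia 4 was the highest of its group for Cyp2a5 (2332, next 896) and Cyp2f2 (44926, next 29968). VIPKO hypoxia 3 was the highest of its group for Cyp2a5 (884, next 450), Cyp3a13 (134, next 107) and Gstp3 (72.3, next 34.6), and the lowest for Fmo1 (1658, next 2782).

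The response to hypoxia differed between the genotypes, by the interaction term of the limma fit, for Cyp2a5 (-4.28, adjusted p = 0.0117), Sult1d1 (-3.18, adjusted p = 0.0293) and Adh7 (-2.31, adjusted p = 0.0438).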

How the results depend on the processing

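The called differences of single genes, with the Cyp2e1 and Fmo6 interactions, were recomputed under each alternative, and none of these changed direction; the other named genes were not recomputed. Over the settings other than leaving out 1 library, 263 of these values kept their side of the threshold, 52 lost a call and 2 gained one; leaving out 1 library gave 398, 98 and 4. Of the 51 enzyme genes, 13 were called for hypoxia in WT, 5 for the genotypes in normoxia, 1 for hypoxia in VIPKO, 1 for the genotypes in hypoxia and 3 for the interaction. When each library was left out in turn, these counts ran from 7 to 23, from 4 to 7, from 0 to 1, from 0 to 6 and from 1 to 9. With only the groups compared in the fit, they were 8 for hypoxia in WT and 0 for both hypoxia in VIPKO and the genotypes in hypoxia. No filter on low values gave 0 for the genotypes in hypoxia, and a filter of 50 or a length and GC correction gave 2. Leaving out the 3 libraries lowest on the first principal component, the counts were 0 in every comparison but hypoxia in WT. Without WT hypoxia 5 and VIPKO hypoxia 3, they were 0 for hypoxia in VIPKO, 2 for the genotypes in hypoxia and 6 for the interaction. The added term for Y-linked expression gave 0 for hypoxia in VIPKO. The causes were not tested.

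The labels do not say whether replicate numbers pair libraries, and the correlations do not settle it. Of 27 same-numbered pairs, 7 had r over 0.1 (range -0.289 to 0.41), and 7 of 20 libraries correlated best with their own number. The rate by chance was not computed. The replicate block gave 7 genes for hypoxia in WT, 5 for the genotypes in normoxia and 0 in the other comparisons. With the replicate block and the length and GC correction the counts were 1 for the genotypes in normoxia, 1 for the interaction and 0 for hypoxia in VIPKO and the genotypes in hypoxia.

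Counts over all genes also moved by more than 1.5 times: under the other settings 1873 became 0 to 2229, 3173 became 1544 to 3822, 216 became 45 to 229, 350 became 9 to 1065 and 61 became 0 to 292, in the order normoxia genotypes, hypoxia in WT, hypoxia in VIPKO, hypoxia genotypes, interaction. Leaving out 1 library at a time, they ran from 359 to 2551, 1382 to 4710, 88 to 392, 35 to 1339 and 4 to 541, in the same order. Depth limits Fmo6, Cyp2c23 and Sult6b1, which rested on 0 to 46.5 estimated reads, and WT hypoxia 4, where 3 reads were worth a signal of 11.7.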

Other observations

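Of the drug transporters, which export or take up foreign compounds, 18 were tested. With hypoxia in WT 3 rose and 1 fell (median 0.02), beside 7.88% and 6.77% of all genes. In VIPKO 1 rose and 1 fell (median 0.06), beside 0.614% and 0.383%. In VIPKO in normoxia 1 was higher and 1 lower than in WT (median 0.03), beside 4.69% and 3.96%. Between genotypes in hypoxia 1 was lower, beside 0.9%. Abcb1a, a P-glycoprotein of capillary endothelium, rose with hypoxia in both genotypes, by 0.81 ± 0.16 in WT (adjusted p = 0.00605) and by 0.96 ± 0.18 in VIPKO (adjusted p = 0.00944). Its group means were 1069 in WT normoxia, 1893 in WT hypoxia, 1186 in VIPKO normoxia and 2396 in VIPKO hypoxia. Slco3a1, an organic anion transporter, was lower with hypoxia in WT (-0.25 ± 0.07, adjusted p = 0.0221) and in VIPKO in normoxia (-0.34 ± 0.07, adjusted p = 0.0107). Abcc1, a glutathione conjugate exporter, fell by 0.30 on the log2 scale with hypoxia in VIPKO (SE 0.07, adjusted p = 0.0375). Hsd11b1, which regenerates active glucocorticoid, was higher in VIPKO than in WT under hypoxia (0.67 ± 0.14, adjusted p = 0.0214), with group means of 3239 and 2043. It was the 1 gene called there among the 32 esterases, reductases and other phase I enzymes, beside 0.716% of all genes that were higher.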
